A study of Limodorum abortivum with 6 samples.

Results

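The genes described here are the protein kinases and receptor-like kinases of *Limodorum abortivum*, a mixotrophic orchid whose roots house ectomycorrhizal fungi. They were chosen by wording, from the readable rows of the study's list of plant genes: a UniProt description had to name a protein kinase, a receptor-like protein or a receptor kinase and must not place the protein in the chloroplast or mitochondrion. Of 1159 listed plant genes, 35 met this rule, among 100005 assembled genes in the count files. The rule uses no expression value, but it was set with earlier results of these data known.

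Root segments were taken from adult plants growing wild at a single Italian site and were compared as 3 mycorrhizal libraries (LM3, LM4, LM6) and 3 non-mycorrhizal ones (LS2, LS3, LS6). Neither group received a treatment. The number of plants behind each library is not given in the sources used here. Mycorrhizal roots were recognised by their thickness and dark colour and checked in hand-cut sections. Non-mycorrhizal roots came from the same natural soil and were not sterile, so the comparison is between field roots with and without the mycorrhizal symbiont. Counts are HTSeq counts of uniquely aligned reads and summed to between 4748078 and 6019195 per library. Reads that HTSeq left uncounted as ambiguous, because their alignment fell on more than 1 gene, amounted to 12.1 to 13.3 per 100 gene counts in the LM libraries. In the LS libraries they amounted to 24.2 to 41.4, and their part in the results below was not tested. Reads with non-unique alignments were also left uncounted and are not part of these amounts. Photosynthesis genes, as a check for green tissue, had few counts, and the 6 listed photosystem and antenna genes together drew 9 to 20 counts in LM and 42 to 121 in LS. The amount of fungal RNA in each library was not analysed here, so its part in the results was not tested. In bulk roots, fewer cells of a type and less RNA per cell cannot be told apart.

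Protein kinases pass signals on by adding phosphate to other proteins. Plant receptor-like kinases span the plasma membrane, with an outer domain that binds peptides, sugars or cell wall fragments and an inner kinase domain that starts the response. In legumes and in arbuscular mycorrhiza, receptor kinases with LysM or leucine-rich repeat (LRR) domains perceive microbial signals, and a calcium- and calmodulin-dependent kinase reads the calcium oscillations that follow. Of these symbiosis kinases, descriptions with LysM, with symbiosis receptor or with a calmodulin-dependent kinase numbered 0 among the 1159 listed plant genes, as did mitogen-activated and wall-associated kinases. These are only the first rows of the study's plant gene list, the rest of which was not used here, so the count says nothing of such kinases in the whole transcriptome.

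By description, the 35 genes fell into 9 classes. There were 11 LRR receptor kinases, 3 lectin receptor kinases, 5 other receptor-like kinases and 2 receptor-like cytoplasmic kinases, which lack the outer domain. The intracellular kinases were 4 CBL-interacting kinases, 3 calcium-dependent kinases or their relative PEPKR2, 3 AGC kinases of auxin transport and 2 SR protein kinases. With them are grouped 2 beta subunits of the SnRK1 complex, which are described as regulatory subunits of a kinase. Orchid genera dominated the taxonomic assignments, with 19 genes assigned to *Dendrobium catenatum* and 14 to *Phalaenopsis equestris*. Together these made up 94.3% of the 35 genes, against 66.8% of all listed plant genes. Only 1 gene (MSTRG.2722) was assigned to a clade outside the orchids, the legume tribe Trifolieae. The 35 genes came from 30 Trinity genes, the units into which the assembler groups its transcripts, because 5 of these units held a pair of members each. Reads of such a pair may have been divided between its members by the authors' counting.

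Levels are given as counts and as CPM, counts scaled to the reads aligned to plant transcripts (per 1e6 of them) and to edgeR's TMM factors. Transcript lengths were not used here, so levels are meant for comparison between libraries. Where a ratio, share or rank between genes is given, it is not corrected for transcript length. LM and LS were compared with edgeR's quasi-likelihood test, and p-values were adjusted by the Benjamini-Hochberg method over the 719 listed plant genes with enough counts for edgeR's filterByExpr. Of the 35 kinase genes, 21 (60%) passed this filter, compared with 62% of all listed plant genes. The other 14 are described at the end by their counts.

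None of the 21 tested kinase genes was called at an adjusted p under 0.05 (0 genes by the edgeR quasi-likelihood test, lowest adjusted p = 0.160), and 0% of the 719 tested genes were called. At an unadjusted p under 0.05 there were 3 kinase genes higher and 3 lower in LM, 6 of 21, where 15.7% of the tested genes passed (8.34% higher and 7.37% lower in LM). The 3 higher genes encode a lectin receptor kinase, a LEAF RUST 10 type receptor-like kinase and a SnRK1 beta subunit, and the 3 lower genes a lectin receptor kinase, an LRR receptor kinase and a receptor-like cytoplasmic kinase. Of the 3 higher genes, the lectin receptor kinase (MSTRG.1613) and the SnRK1 beta subunit (MSTRG.1504) passed the filter only through LM. Neither reached 10 counts in any LS library. Being tested was thus not independent of being higher in LM. The same holds for their place among the genes without overlap. LM was apart from LS, with no overlap between their libraries, for 4 kinase genes that were higher and 3 that were lower in LM, against 12.9% and 11.5% of the tested genes. Other tools differed in their calls. DESeq2 called 4 kinase genes at an adjusted p under 0.05, where it called 6.38% of all 1159 listed genes and 8.48% of the 719, edgeR's likelihood ratio test called 3, where it called 4.59%, and limma-voom called 0, where it called 0%. The tested kinase genes had log2 fold changes (LM over LS) from -1.65 to 3.22, with a median of 0.44, against a median of -0.01 over all tested genes.

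**Figure D1:**
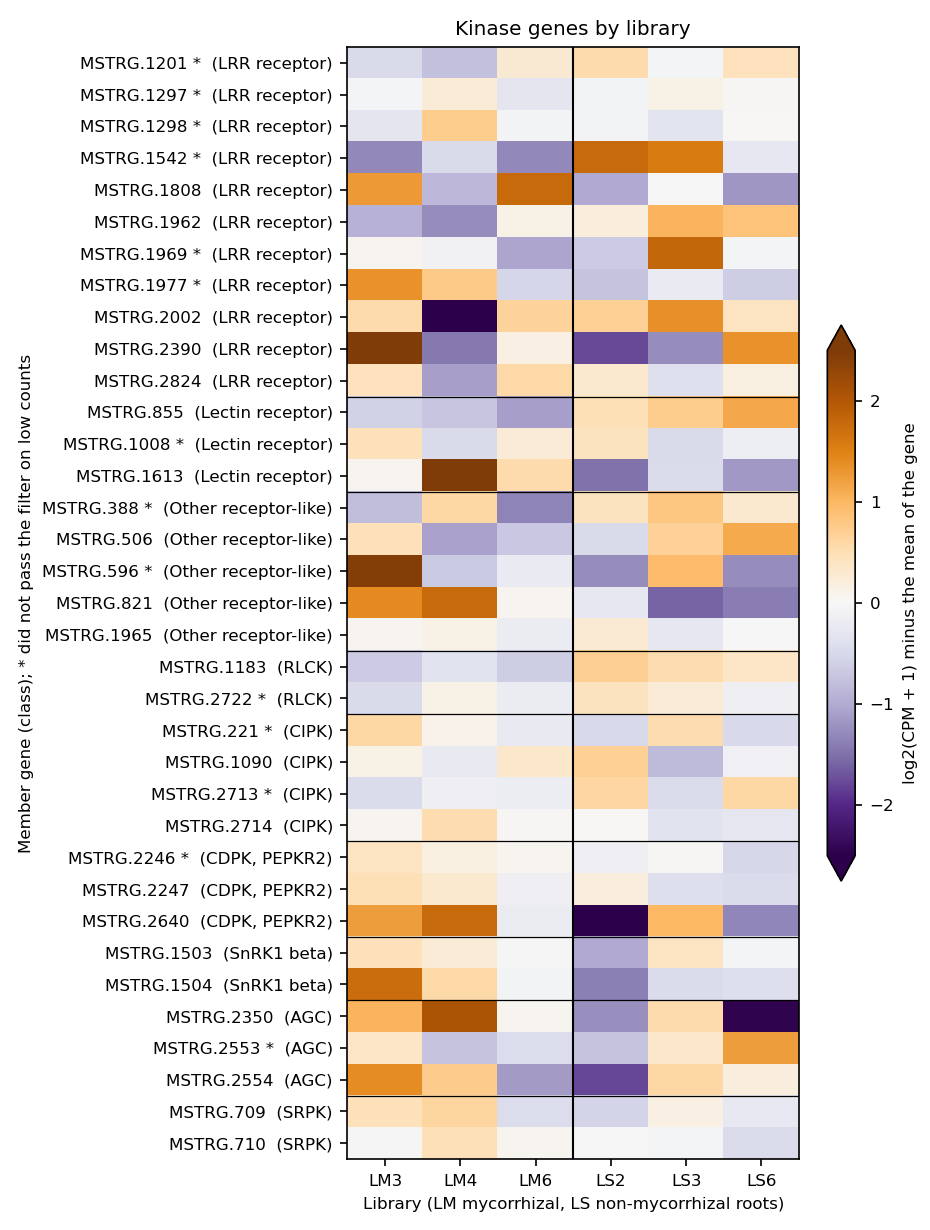
Level of each of the 35 kinase genes (rows, by class) in the 6 libraries (columns), as log2(CPM + 1) minus the mean of that gene, with orange above and purple below the mean and values beyond the ends of the scale shown in the end colours. LRR receptor kinases hold genes that are high in LM, genes that are high in LS, and MSTRG.2002, which is low in LM4 alone.

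The lectin receptor kinases carry an outer domain related to sugar-binding lectins. MSTRG.855 matches the G-type lectin receptor kinases LECRK4 and LECRK1 of rice, where this gene cluster is known from resistance to the brown planthopper. It had 90 counts in LM3, 73 in LM4 and 64 in LM6, against 204 in LS2, 244 in LS3 and 264 in LS6. All LM libraries lay below all LS libraries, with 17.5 ± 3.43 CPM (SD, n = 3) in LM against 55.0 ± 13.0 CPM for LS (SD, n = 3). The log2 fold change (log2 FC, LM over LS) was -1.65 (standard error, SE, 0.28), the lowest p among the kinase genes (unadjusted p = 0.00111, adjusted p = 0.160 from the edgeR quasi-likelihood test). DESeq2 called it with an adjusted p of 0.000192, and over the 17 alternatives, which include edgeR, limma-voom and DESeq2, its adjusted p ranged from 0.000192 to 0.337.

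MSTRG.1613, an L-type lectin receptor kinase similar to S.4 and V.9 of Arabidopsis, differed in the opposite direction. Other members of this Arabidopsis family perceive extracellular nucleotides. It had 14 counts in LM3, 87 in LM4 and 23 in LM6, and 2, 9 and 3 counts in LS2, LS3 and LS6. The groups were apart, but LM4 stood far above the other LM libraries. The level was 10.0 ± 10.4 CPM (SD, n = 3) in LM against 1.04 ± 0.769 CPM for LS (SD, n = 3), which is a log2 FC of 3.22 (SE 0.99, adjusted p = 0.225 from the edgeR quasi-likelihood test). Without LM4 the log2 FC was 1.94, and the unadjusted p of 0.0179 became 0.0540 without LS2 and 0.0575 without LS6 (edgeR quasi-likelihood test). DESeq2 called this gene with an adjusted p of 0.0351. The third lectin receptor kinase, MSTRG.1008, was not tested and had at most 4 counts in a library.

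Among the other receptor-like kinases, MSTRG.821 was higher in LM. Its description is LEAF RUST 10 DISEASE-RESISTANCE LOCUS RECEPTOR-LIKE PROTEIN KINASE-like, a family named after a kinase at a leaf rust resistance locus of wheat. Counts were 84, 97 and 32 in LM3, LM4 and LM6, and 24, 7 and 7 in LS2, LS3 and LS6. The groups did not overlap in CPM, although LM6 (6.85 CPM) was close to LS2 (5.18 CPM). Means were 16.8 ± 9.01 CPM (SD, n = 3) in LM against 2.84 ± 2.04 CPM for LS (SD, n = 3). The log2 FC was 2.55 (SE 0.72, adjusted p = 0.188 from the edgeR quasi-likelihood test), and DESeq2 called the gene with an adjusted p of 0.0284. Leaving out any 1 library gave a log2 FC between 2.17 and 3.34.

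MSTRG.1965 was the gene with the most counts of the class and of all 35, with 8714 over the 6 libraries. It matches HERK 1 and At5g59700, of the Arabidopsis family around FERONIA that monitors the cell wall during cell elongation. Its counts ranged from 1353 to 1526 in LM and from 1254 to 1850 in LS. Means of 331 ± 36.7 CPM (SD, n = 3) in LM against 335 ± 61.7 CPM for LS (SD, n = 3) gave a log2 FC of -0.02 (SE 0.23, adjusted p = 0.977 from the edgeR quasi-likelihood test), smaller than the spread between libraries. MSTRG.506, which resembles the calmodulin-binding cytoplasmic kinase CRCK2, had overlapping groups and a log2 FC of -0.92 (SE 0.64).

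**Figure D2:**
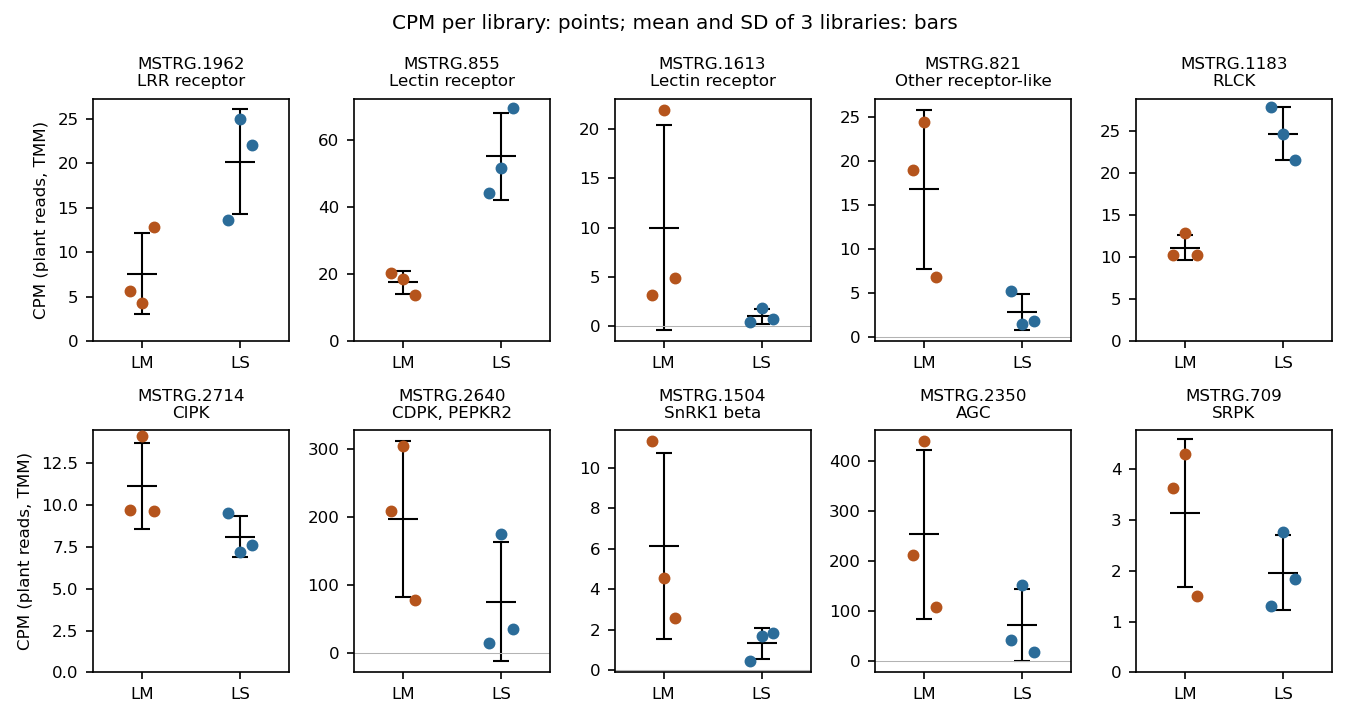
CPM per library of the 10 kinase genes given in full or standing for their class, with LM libraries in orange, LS libraries in blue, and black bars for the mean and SD of 3 libraries; each vertical axis has its own scale. MSTRG.855 and MSTRG.1183 have all LM points below all LS points with narrow spread, whereas the LM points of MSTRG.1613 range from 3.17 to 21.9 CPM.

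LRR receptor kinases form the largest family of plant receptor kinases, and many bind small peptides. Of the 11 listed, 5 were tested, with log2 FC from -1.41 to 1.86. MSTRG.1962 and MSTRG.1808 share their descriptions, the Arabidopsis receptor kinases At4g37250 and At4g34220, but belong to separate Trinity genes. MSTRG.1962 had 25, 17 and 60 counts in LM3, LM4 and LM6, and 63, 118 and 84 in LS2, LS3 and LS6. It was lower in LM, at 7.59 ± 4.59 CPM (SD, n = 3) against 20.2 ± 5.90 CPM (SD, n = 3), and the groups were apart only by the step from 12.8 CPM in LM6 to 13.6 CPM in LS2. The log2 FC was -1.41 (SE 0.51, adjusted p = 0.270 from the edgeR quasi-likelihood test). The unadjusted p was 0.0340, and it rose above 0.05 when LM3, LM4, LS3 or LS6 was left out (0.0924, 0.0813, 0.0928 and 0.0760 in the edgeR quasi-likelihood test).

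MSTRG.1808, with an unadjusted p of 0.0533, had 143 counts in LM3, 26 in LM4 and 213 in LM6, and 27, 59 and 19 in LS2, LS3 and LS6. LM4 lay within the LS range, so the groups overlapped. The log2 FC was 1.85 (SE 0.77, adjusted p = 0.324 from the edgeR quasi-likelihood test). The ratio of MSTRG.1808 to MSTRG.1962 was 5.72 in LM3, 1.53 in LM4 and 3.55 in LM6, and 0.429 in LS2, 0.500 in LS3 and 0.226 in LS6. This pair was put side by side after its values were seen, so no test was made of the ratio.

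The remaining tested LRR receptor kinases overlapped between groups. MSTRG.2002 matches BRL2, a relative of the brassinosteroid receptor known from leaf vein patterning in Arabidopsis. It had 98 counts in LM3 and 112 in LM6 but 1 count in LM4, and 75 to 185 in LS. MSTRG.2390, similar to the kinase-like proteins TMKL1 and IMK2, had 114, 1 and 13 counts across the LM libraries and 0, 2 and 29 across the LS libraries. Neither pattern followed the groups, and their log2 FC were -0.84 (SE 1.17) and 1.86 (SE 1.92). MSTRG.2824, similar to the calmodulin-binding receptor kinase CaMRLK, had one of 0.13 (SE 0.74).

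Receptor-like cytoplasmic kinases relay the signal inside the cell. MSTRG.1183, similar to the kinase-like proteins At3g51990 and At1g28390, was lower in LM. It had 45, 51 and 48 counts in LM3, LM4 and LM6, and 129, 116 and 82 in LS2, LS3 and LS6. The groups did not overlap, and the libraries of each group lay close together, at 11.1 ± 1.52 CPM (SD, n = 3) in LM against 24.7 ± 3.16 CPM for LS (SD, n = 3). The log2 FC was -1.15 (SE 0.25, adjusted p = 0.186 from the edgeR quasi-likelihood test), and DESeq2 called it with an adjusted p of 0.00734. The second gene of the class is MSTRG.2722, the one with a legume taxon. It resembles RIPK, which phosphorylates the immune regulator RIN4 in Arabidopsis, and had 3 counts over LM and 8 over LS.

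**Figure D3:**
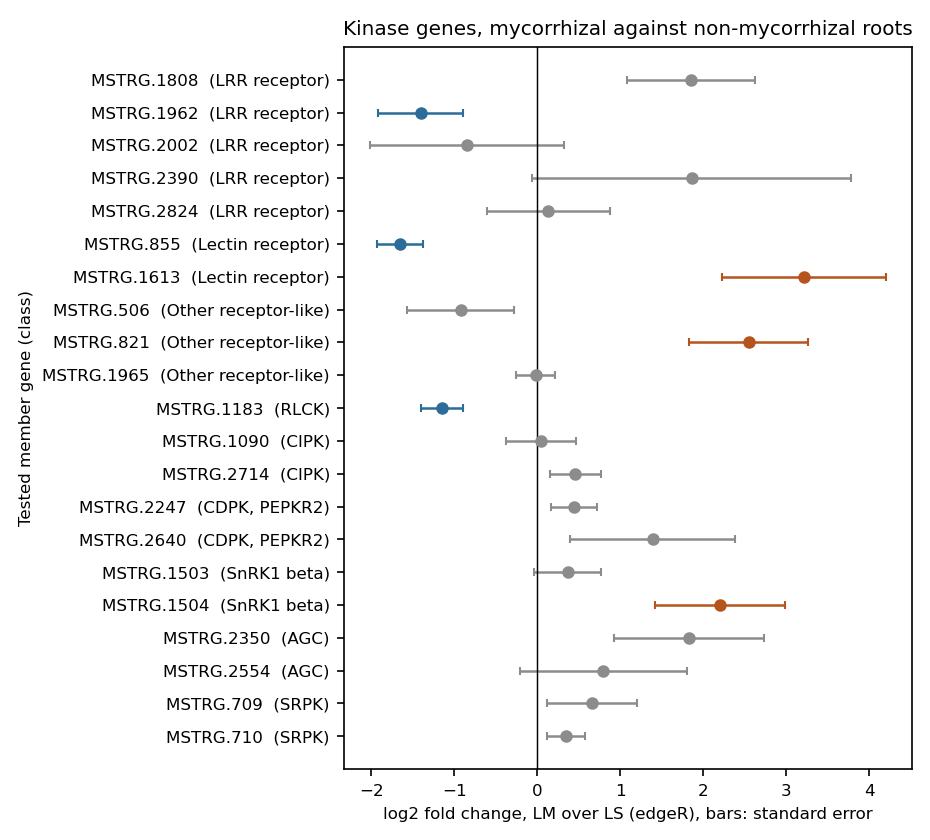
Log2 fold change of LM over LS for the 21 tested kinase genes (points, grouped by class) with the standard error from edgeR (bars), in orange or blue where the unadjusted p was under 0.05 and in grey elsewhere. Receptor kinases spread to both sides of 0, from -1.65 to 3.22, and 10 of the 11 plotted genes without a receptor domain lie above 0 (12 of 16 when genes with low counts are included). With members of 1 Trinity gene summed, it is 8 of 9. MSTRG.506, also described as a receptor-like cytoplasmic kinase, is counted with the receptor kinases.

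The log2 FC of receptor kinases and of the remaining kinases are set side by side here without a test of their difference. Of the 10 tested receptor kinases, 5 were above and 5 below 0, with a median of 0.06 and a median size of 1.53 regardless of sign. Of the 11 tested genes without a receptor domain, 10 were above 0, with a median of 0.46, and these include both SnRK1 regulatory subunits. MSTRG.506 (log2 FC -0.92) is counted here as a receptor kinase. Its description also names a receptor-like cytoplasmic kinase, so the split depends on how such a gene is assigned. Among all 719 tested genes 48.7% were above 0, with a median of -0.01. This is a description of few genes, most of them with unadjusted p above 0.05, and the split was drawn up after the values were seen. Without the filter on low counts, and in DESeq2, 12 of the 16 listed kinases of this kind were above 0, and 3 of the 5 that the filter had left out (MSTRG.2553, MSTRG.2713 and MSTRG.2722) were below it. The 10 of 11 became 9 of 11 when the whole assembly was fitted together, and also without any 1 of LM6, LS3 or LS6. With members of 1 Trinity gene summed, so that pairs are not counted as separate genes, it was 8 of 9. A filter of at least 10 counts in every library of 1 group also gave 8 of 9.

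SnRK1 is the plant counterpart of yeast SNF1 and animal AMPK, a kinase complex active when sugars run short, and its beta subunits hold the complex together. Both listed beta subunits, MSTRG.1503 and MSTRG.1504, come from 1 Trinity gene. MSTRG.1504 had 50, 18 and 12 counts in LM3, LM4 and LM6, and 2, 8 and 7 in LS2, LS3 and LS6. The groups did not overlap, with 6.14 ± 4.59 CPM (SD, n = 3) in LM against 1.32 ± 0.774 CPM for LS (SD, n = 3), which is a log2 FC of 2.20 (SE 0.79, adjusted p = 0.267 from the edgeR quasi-likelihood test). MSTRG.1503 took most of the counts of the pair and overlapped between groups, with 189, 145 and 140 counts across the LM libraries and 68, 192 and 112 across the LS libraries, which gave a log2 FC of 0.37 (SE 0.41). As a share of the counts of the pair, MSTRG.1504 made up 20.9%, 11% and 7.89% in LM3, LM4 and LM6, and 2.86%, 4% and 5.88% in LS2, LS3 and LS6. For the pair summed, the log2 FC was 0.53 (SE 0.42, adjusted p = 0.547 from the edgeR quasi-likelihood test). The pair as a whole overlapped between groups, and without LM3 the log2 FC of MSTRG.1504 was 1.43 (unadjusted p = 0.105 in the edgeR quasi-likelihood test).

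AGC kinases of the PINOID, WAG and D6 type phosphorylate PIN proteins, the carriers that export auxin from cells. MSTRG.2350, similar to D6PKL2 of Arabidopsis and G11A of rice, had 934, 1740 and 510 counts in LM3, LM4 and LM6, and 200, 723 and 69 in LS2, LS3 and LS6. LS3 lay above LM6, so the groups overlapped. Means were 253 ± 169 CPM (SD, n = 3) in LM against 71.5 ± 71.8 CPM for LS (SD, n = 3), which is a log2 FC of 1.82 (SE 0.90, adjusted p = 0.368 from the edgeR quasi-likelihood test). MSTRG.2554, similar to PINOID 2, had 70, 39 and 9 counts across the LM libraries and 4, 41 and 24 across the LS libraries, with a log2 FC of 0.80 (SE 1.01).

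Calcium-dependent kinases join a calcium sensor and a kinase in a single protein. MSTRG.2640, similar to calcium-dependent protein kinases 1 and 15, had 923, 1209 and 361 counts in LM3, LM4 and LM6, and 69, 829 and 133 in LS2, LS3 and LS6. Again LS3 lay above LM6. The log2 FC was 1.39 (SE 0.99, adjusted p = 0.503 from the edgeR quasi-likelihood test). The libraries had almost the same order for MSTRG.2640 and MSTRG.2350, from LM4 through LM3 and LS3 to LM6, with only LS2 and LS6 exchanged at the low end. Both genes depended on LS3 in the same way, and without it the log2 FC was 3.02 for MSTRG.2350 and 2.96 for MSTRG.2640. Their likeness was noticed after the values were seen and is given as a description.

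**Figure D4:**
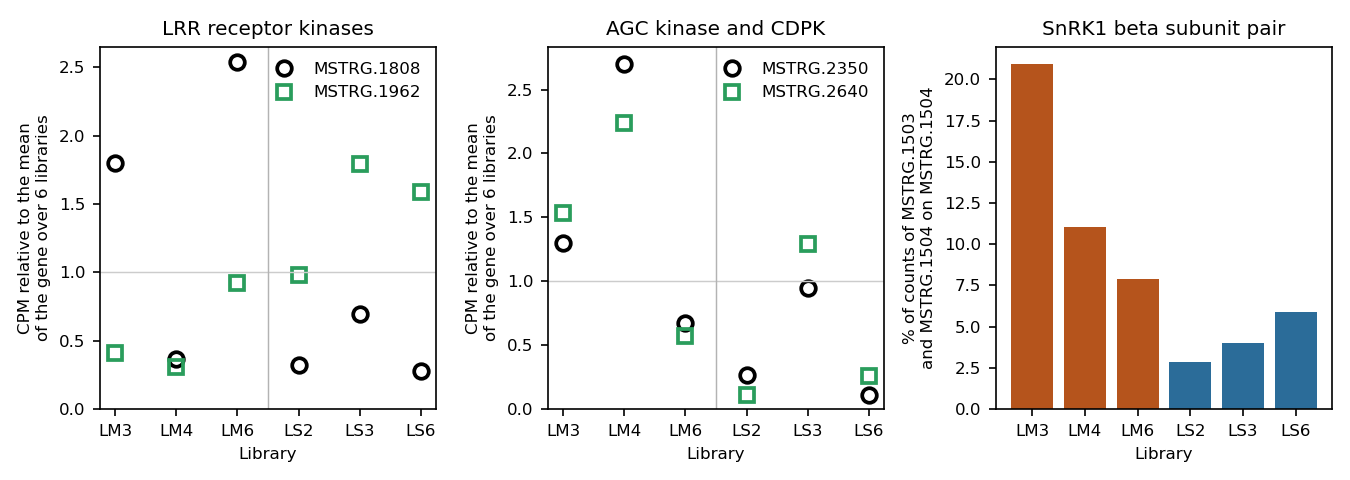
Left and centre, CPM of 2 genes in each library relative to the mean of that gene over 6 libraries. MSTRG.1808 lies above MSTRG.1962 in LM3 and LM6, close to it in LM4, and below it in the LS libraries. MSTRG.2350 and MSTRG.2640 follow each other, both with LS3 above LM6. Right, share of the counts of the SnRK1 beta pair that fall on MSTRG.1504, from 7.89% to 20.9% in LM (orange) and from 2.86% to 5.88% in LS (blue).

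The other tested intracellular kinases had log2 FC from 0.04 to 0.66. MSTRG.2247 matches calcium-dependent protein kinase 10 and PEPKR2, a relative of the kinase that acts on phosphoenolpyruvate carboxylase. It had a log2 FC of 0.44 (SE 0.28) and held 97.8% to 99.3% of the counts of its pair with MSTRG.2246. CBL-interacting kinases are switched on by calcineurin B-like calcium sensors and act on ion channels and pumps. MSTRG.2714, similar to CIPK11 and CIPK12, had 43, 56 and 45 counts across the LM libraries and 44, 34 and 29 across the LS libraries. In CPM its LM libraries were all above its LS libraries, by a step from 9.51 in LS2 to 9.63 in LM6, with a log2 FC of 0.46 (SE 0.31, adjusted p = 0.482 from the edgeR quasi-likelihood test). MSTRG.1090, similar to CIPK5 and CIPK16, had a log2 FC of 0.04 (SE 0.42). SR protein kinases phosphorylate splicing factors, and MSTRG.709 and MSTRG.710, a pair from 1 Trinity gene, had log2 FC of 0.66 (SE 0.55) and 0.35 (SE 0.23). Summed, this pair had a log2 FC of 0.36 (adjusted p = 0.467 from the edgeR quasi-likelihood test).

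Among the 14 genes that were not tested, counts reached at most 53 in a library, and 6 of the genes had 20 or fewer counts in total. The LRR receptor kinase MSTRG.1542, named here after its values were seen, had 0, 3 and 0 counts in LM3, LM4 and LM6, and 34, 30 and 4 in LS2, LS3 and LS6. It matches ERECTA, the Arabidopsis receptor for peptides that set stomatal spacing and organ growth, and PXC2. The ratio of LM to LS, 0.0445, carries a 95% counting interval of 0.00895 to 0.136 (Clopper-Pearson, counting error only), but LS6 was within 1 count of LM4. In a fit without the filter on low counts its unadjusted p was 0.0202 and its adjusted p 0.279 (edgeR quasi-likelihood test), and the adjusted p of DESeq2 was 0.0544. In the same fit MSTRG.1977, also picked out by its values and similar to the LRR receptor kinase At1g14390, had an unadjusted p of 0.0466, with 22, 12 and 3 counts across the LM libraries and 2, 5 and 2 across the LS libraries.

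The others had unadjusted p above 0.05 in that fit, and single libraries stood out. MSTRG.596 had 53 counts in LM3 and at most 17 in any other library. MSTRG.1969, similar to the co-receptor SERK2 and the cold-responsive kinase CRPK1, had 44 counts in LS3 and at most 9 elsewhere. MSTRG.1201 matches RLK7 and CEPR1, Arabidopsis receptors of a defence peptide and of peptides that signal nitrogen shortage, and had 6 counts over LM and 15 over LS. MSTRG.388, another receptor-like kinase, had 13 counts over LM and 35 over LS. The pair MSTRG.1297 and MSTRG.1298, similar to the cytoplasmic kinase PBL21 and an LRR receptor kinase, had at most 6 counts in any library. The same held for the CBL-interacting kinases MSTRG.221 and MSTRG.2713 and for MSTRG.2246, whereas MSTRG.2553, similar to WAG1 and WAG2, reached 11 counts in LS6.

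Over all 35 genes, the summed level was 1208 ± 325 CPM (SD, n = 3) in LM against 886 ± 131 CPM for LS (SD, n = 3). LM6 (865 CPM) and LS2 (864 CPM) were alike, LS3 (1026 CPM) lay above both, and the groups overlapped. The 3 genes with most counts, MSTRG.1965, MSTRG.2350 and MSTRG.2640, took 49.9% to 72.9% of these counts. Without them the sum was 427 ± 49.0 CPM (SD, n = 3) in LM against 404 ± 18.2 CPM for LS (SD, n = 3).

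Other signalling genes among the listed plant genes numbered 27, of which 18 were tested, with 0 called at an adjusted p under 0.05 by the edgeR quasi-likelihood test. Of these, 1 had an unadjusted p under 0.05 and was higher in LM, and 0 were lower, against 8.34% and 7.37% of all tested genes. It was a protein phosphatase 2C (MSTRG.1847), an enzyme that removes the phosphate that kinases add. It had 508, 179 and 129 counts in LM3, LM4 and LM6, and 60, 62 and 61 in LS2, LS3 and LS6, and the groups were apart. The log2 FC was 2.15 (SE 0.56, adjusted p = 0.186 from the edgeR quasi-likelihood test), and DESeq2 called it with an adjusted p of 0.0181. The 8 protein phosphatases and their regulators had 6 tested genes with a median log2 FC of 0.31. The 6 kinases and kinase receptors outside the wording of the rule had 4 tested genes with a median of -0.33, the 9 calcium sensors, inositol lipid enzymes and small regulators 6 with a median of -0.26, and the 4 auxin response genes 2 with a median of 0.66.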

How the data were processed

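Root RNA had been sequenced in paired reads with a kit that does not mark strand. The 6 libraries were analysed as 3 LM and 3 LS, with conditions and replicate numbers from the sample labels. The deposited counts were made by the authors, who used bbduk for trimming, Trinity for an assembly over both conditions, HISAT2 2.0.4 for alignment, StringTie 1.3.5 for merging transcripts and HTSeq for counting, without normalization. The StringTie and HISAT2 versions are from the submitters' processing notes, and the strand setting of HTSeq is not given in the sources used here. Rows that name no gene (68.3% to 72.8% of a file's counts, most of them non-unique alignments) were left out.

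Descriptions, taxa and Trinity genes came from the first 1159 rows of the study's plant gene list, the rest of which was not used here, and the study's own test results in it were not used. Library sizes were the study's totals of reads on plant transcripts. LM and LS were compared with edgeR 4.0.16 under R 4.3.3 (TMM, filterByExpr with a minimum count of 10 and total of 15, quasi-likelihood test, Benjamini-Hochberg adjustment over 719 genes, threshold 0.05), as 2 groups without covariates. Standard errors are the log2 FC divided by the square root of F. DESeq2 1.42.0 and limma 3.58.1 served as alternatives. Scripts were tested on simulated data. With 3 libraries a group, the p-values set the difference between LM and LS against the spread between these libraries, estimated in part across genes. The number of plants per library is not given, so this spread cannot be read as variation between plants. Intervals cover counting error only, since reads carry no molecular identifiers.

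The members and lists were chosen with earlier results of these data known. Genes given in full were those with an unadjusted p under 0.05, those called by DESeq2, those whose groups do not overlap and, in a class with none, the tested gene with the largest log2 FC. The remaining members are given more briefly, by class, and a comparison or gene picked out on its values is marked as such.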

Additional observations from a re-analysis of the deposited data

How the results depend on the processing

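Of the 10 kinase genes named by rule, the log2 FC kept its direction under every alternative that gave a value, and 7 of 169 values passed an adjusted p of 0.05 where the edgeR quasi-likelihood test had not. The number of kinase genes called at an adjusted p under 0.05 was 0 in edgeR and 4 with DESeq2 (74 of all listed plant genes). It was 3 with edgeR's likelihood ratio test (33 of all tested) and 0 under the other alternatives. Of these others, the fit of all genes in the files called 688 of 22268 genes. A filter of at least 10 counts in every library of 1 group left 4 of 654 genes called, and the rest called 0 genes. At an unadjusted p under 0.05 there were 6, with 10 in DESeq2, which also fits the genes with low counts, and 4 to 7 with 1 library left out. Among all genes tested, the shares were 15.7%, 16.2% and 10.6% to 18.4%. The number of kinase genes whose groups do not overlap, 7, ranged from 8 to 13 with 1 library left out, since fewer libraries overlap less easily. It was highest without LM6 (13) and without LS3 (12). It was 6 with RLE in place of TMM factors, with plant reads alone, and with the sum of gene counts as library size. It was also 6 in the fit of all genes, under the filter of at least 10 counts, and with Trinity genes summed. In these fits 3 were higher in LM, or 4 with plant reads alone. Without a filter it was 9 of 35. The shares over all genes were not computed for these fits. With all 6 libraries, 24.5% of the 719 tested genes had groups apart. This share was not computed with 1 library left out, so the counts of 8 to 13 have no background. The median log2 FC of the tested kinase genes was 0.44. It was 0.16 in the fit of all genes in the files, in which the median of the listed plant genes was -0.26, and 0.18 to 0.55 with 1 library left out, lowest without LM3. The unadjusted p of MSTRG.821, MSTRG.855 and MSTRG.1183 was under 0.05 in 17 of 17 alternatives, that of MSTRG.1613 in 14, MSTRG.1962 in 13 and MSTRG.1504 in 10.

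The replicate numbers of the labels are not said to pair libraries, and deviations from the group means correlated at -0.06, 0.16 and 0.14 for numbers 1, 2 and 3. With the replicate block, 0 kinase genes and 0 of the 719 tested genes were called, and the median log2 FC of the kinase genes was 0.45. An unadjusted p under 0.05 was found for 6 kinase genes and for 14% of the tested genes. These 6 kinase genes were not the same 6 as without the block. The unadjusted p of MSTRG.2350 went from 0.0911 to 0.00276 (adjusted p = 0.222 in edgeR) and that of MSTRG.1504 from 0.0319 to 0.124. The 14 kinase genes with few counts were left out by the filter. In the fit without it 0 of the 35 were called, and 0 of the 1159 listed genes.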
